A study of Mus musculus with 2 samples.

Results

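Type I interferon response genes are the genes that cells switch on when type I interferon reaches them. A list of 39 such mouse genes was followed gene by gene, each matched by its symbol, and the list was drawn up with earlier results of these data known. Of the 39, 37 were among the 32286 features of the count tables, and Mx1 and Mx2 were not analysed here. The study measured bone marrow hematopoietic cells of mice cell by cell with droplet RNA sequencing that reads 3′ ends, in 1 library per group. The control library had the genotype Mx1Cre+/-;Rosa26+/+. The other, called the MYC library, had the genotype Mx1Cre+/-;Rosa26LSL-MYC/LSL-MYC. Both groups thus carried 1 copy of Mx1-Cre, a recombinase under a promoter that interferon induces, and the MYC group alone carried, on both Rosa26 alleles, a MYC transgene that Cre releases from a stop cassette. The age and number of the animals, any pooling of marrow and any agent given to induce Cre are not given in the sources used here. With 1 library per group, genotype, animal and library preparation cannot be told apart. No test was run and no p-value is given, and intervals are 95% intervals of counting error alone, except those of list medians, which show the spread between genes.

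Type I interferons bind a receptor formed by Ifnar1 and Ifnar2, whose kinases activate Stat2, which joins Irf9 in the complex ISGF3. ISGF3 binds interferon-stimulated response elements in the promoters of target genes, which encode sensors of viral nucleic acid, antiviral enzymes and binding proteins, and parts of the pathway itself. Interferon gamma acts through gamma-activated sequences and induces an overlapping set of genes, among them the guanylate-binding proteins and the immunity-related GTPases.

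The promoters of the list are shown first because they hold the sequence that names the pathway. RefSeq promoters on GRCm38.p6, spanning 250 bases before and 50 bases after the start site, were found for 30 of the 37 genes. The core of the interferon-stimulated response element, which reads GAAA, any 2 bases and GAAA and was searched on both strands, occurred in 19 of the 30 (63.3%), against 3.99% of the 27025 genes with a promoter in the table. A version that is 1 base longer, with C after the last A, occurred in 16 (53.3%) against 0.944% of all genes. The gamma-activated sequence TTCNNNGAA occurred in 7 (23.3%) against 9.55%. The core with its letters in backward order occurred in none of the 30, against 3.59% of all genes. A match describes letters and does not show that a factor binds there. The 250 bases before the start site are printed, 5′ to 3′ on the gene's strand, for a gene lower in the MYC library in each of the 5 classes with the most cells, called the main classes (Rsad2, chr12:26456453-26456702, minus strand), for a gene with a pair of separate matches that was lower in 4 of them (Ifit1, chr19:34640639-34640888, plus strand) and for the clearest exception (Bst2, chr8:71537473-71537722, minus strand). Capitals mark the core matches, which read TTTC, 2 bases and TTTC where they lie on the opposite strand.
Rsad2: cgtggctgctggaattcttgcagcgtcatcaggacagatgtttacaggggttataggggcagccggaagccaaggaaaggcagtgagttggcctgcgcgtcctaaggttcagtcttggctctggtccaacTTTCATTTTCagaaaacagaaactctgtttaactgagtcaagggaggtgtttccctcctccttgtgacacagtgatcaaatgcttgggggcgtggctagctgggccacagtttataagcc
Ifit1: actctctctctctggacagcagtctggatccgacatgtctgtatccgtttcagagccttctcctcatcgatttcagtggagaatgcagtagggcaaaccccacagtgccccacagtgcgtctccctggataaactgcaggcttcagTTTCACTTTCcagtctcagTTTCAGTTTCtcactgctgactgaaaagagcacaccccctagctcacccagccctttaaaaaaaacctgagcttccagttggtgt
Bst2: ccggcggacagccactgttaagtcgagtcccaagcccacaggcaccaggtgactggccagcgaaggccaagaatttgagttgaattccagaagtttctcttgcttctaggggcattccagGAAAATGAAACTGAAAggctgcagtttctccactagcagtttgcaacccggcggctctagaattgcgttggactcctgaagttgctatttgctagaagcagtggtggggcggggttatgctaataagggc

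The 30 matches in the 19 genes lay between 222 bases before and 33 bases after the start site. Of these, 26 were upstream and 17 within the 100 bases before the start. Sites that differ in number and spacing of matches are printed with 5 flanking bases on each side. In Isg15, 3 matches overlap in 1 run, in Irgm1 and Oas1a 2 matches overlap, and the pair of sites in Ifit3 is identical, with its flanks, to the pair in the neighbouring copy Ifit3b.
Isg15: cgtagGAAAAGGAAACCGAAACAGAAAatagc
Irgm1: ttcaaGAAATAGAAACCGAAActgat
Oas1a: ctcggGAAATGGAAACTGAAAatcta
Ifit3 and Ifit3b, upstream site: gtaagTTTCACTTTCctctt
Ifit3 and Ifit3b, downstream site: gtctgTTTCAGTTTCtactt
Ddx60, upstream site: gaatgGAAACCGAAActtaa
Ddx60, downstream site: gaagaGAAACCGAAActatc
Stat2: cctggTTTCAGTTTCctttc
Gbp7: tgcagTTTCAGTTTCagttc
Igtp: gaactGAAACTGAAAgctgt

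**Figure D1:**
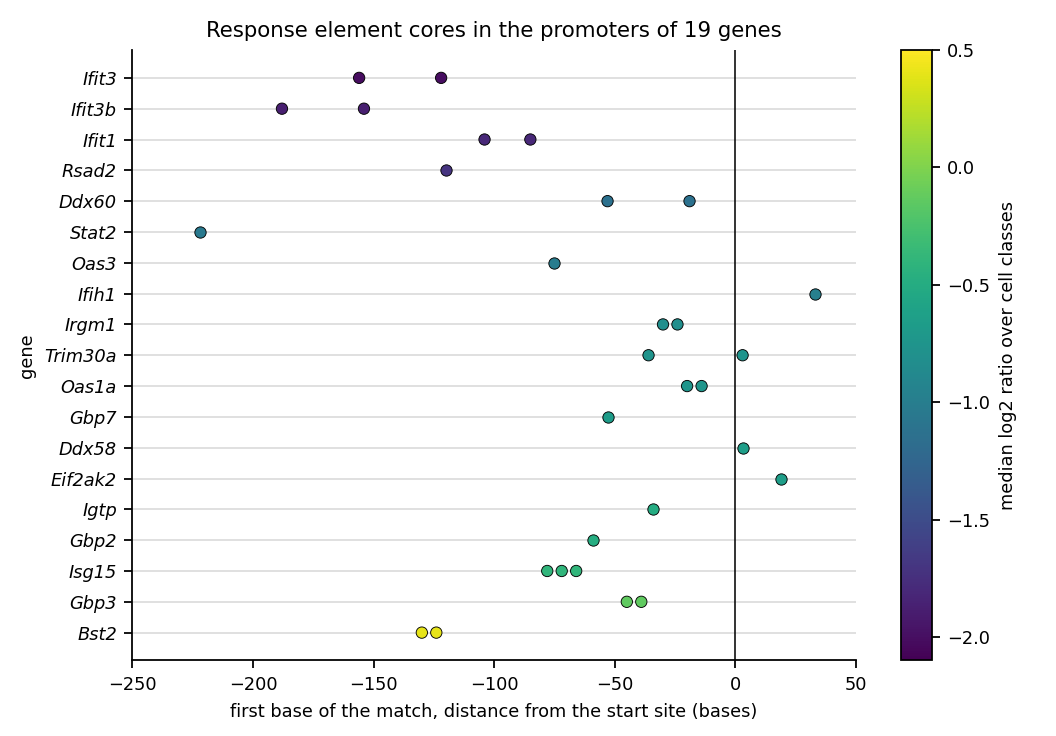
Distance in bases of each core match from the start site (horizontal axis) for the 19 genes that hold one, 1 row per gene. Colour gives the gene's median log2 ratio of MYC over control across the classes where it was read. Most matches sit in the 100 bases before the start, and genes with large and with small differences both hold them.

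Genes with a match had median log2 ratios over the classes from -2.01 to 0.41, with a middle value of -0.75. Genes with a promoter but no match ranged from -1.73 to -0.01, with a middle value of -0.91. Each gene's median was taken over the classes where it was read, from 2 for Ifit3 and Ifit3b to 9 for Bst2. These medians thus do not cover the same classes. Rsad2 and Bst2 both hold matches, and in mature neutrophils, monocytes and erythroid cells Rsad2 had the lowest and Bst2 the highest ratio of the list.

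The 2 libraries held 131884603 and 110012176 UMIs (unique molecular identifiers, each standing for 1 captured transcript) in 17073 control and 14496 MYC barcodes. After filters 14582 and 12484 cells remained, with medians of 5307 and 6010.5 UMIs. A feature named MYC drew 0 control UMIs and 329 in the MYC library. The libraries shared 97 barcodes. Class names stand for clusters with that marker profile, and 9 classes had at least 100 cells in each library. Cells in clusters that stayed unnamed made up 20% of control and 23.6% of MYC cells. They held 7% and 5.75% of the UMIs of the listed genes. Gm42418, a gene that overlaps ribosomal RNA, took 14.3% of control and 7.50% of MYC UMIs, which raises other genes in the MYC library when levels are scaled to the total. Ribosomal protein genes took 10.4% and 15.6%, which lowers them, and their share rose from 2.29% to 4.15% in mature neutrophils and from 15.4% to 22.4% in monocytes, and reached 21.8% in MYC erythroid cells. Median-of-ratios scaling brought the list medians given below closer to 0, to -0.96 in mature neutrophils, -0.55 in immature neutrophils and -0.36 in granulocyte progenitors. With Gm42418 left out of the total, the medians were -1.52 in monocytes, -1.20 in mature neutrophils and -1.11 in erythroid cells.

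Levels are UMIs per 1000000 UMIs of the class (CPM), which in a 3′ assay are not divided by gene length. Ratios are log2 of MYC over control with 1 CPM added to each, while their intervals come from the counts with nothing added, so for genes of a few CPM the ratio can lie outside its interval. A gene is called lower or higher where it differs by 2-fold or more and its interval leaves out a ratio of 1. Only genes with at least 50 UMIs in a class over both libraries were read there, which favours genes that are high in either library.

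Interferon response genes were lower in the MYC library in monocytes, mature and immature neutrophils, erythroid cells and granulocyte progenitors, and near the level of other genes in stem or multipotent progenitors and in T or NK cells. In monocytes 26 of 37 genes were called lower, where 2.44% of all genes were, and the list median was -1.40 (interval over genes -1.55 to -1.19) against -0.14 for all genes. In mature neutrophils 21 of 36 were called lower, where 4.93% of all genes were, and the medians were -1.13 (-1.30 to -0.97) and -0.19. In erythroid cells 17 of 35 were called lower against a background of 2.72%, with medians of -0.96 (-1.29 to -0.46) and -0.03, and 9 were with 5 CPM added in place of 1. No gene of the list was called higher in these 3 classes, where 1.02%, 1.89% and 3.34% of all genes were. The interval lay wholly below a ratio of 1 for 36 of 37 genes in monocytes against 42.8% of all genes, for 35 of 36 in mature neutrophils against 44.2% and for 25 of 35 in erythroid cells against 31%.

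In immature neutrophils 11 of 33 genes were called lower against 1.58% of all genes, and the medians were -0.72 for the list and -0.19 for all genes. Mature neutrophil markers in this class summed to 2463 CPM in control and 1576 CPM in MYC cells, and their part in the result was not tested. In granulocyte progenitors the count was 8 of 30 against 2.27%, with medians of -0.60 and -0.26. Eosinophil markers summed to 19.9 CPM in control and 390 CPM in MYC granulocyte progenitors, and their part in the result was not tested. In these 2 classes 31 of 33 and 24 of 30 genes had an interval wholly below a ratio of 1, against 47.8% and 47.2% of all genes. With 5 CPM added in place of 1, 1 gene was called lower in each of them. Basophils or mast cells had a median of -0.74 against -0.18, with 2 of 17 called lower against 3.93% and 10 of 17 with an interval below a ratio of 1 against 27.3%. A minimum of 200 UMIs left 2 genes there, with a median of 0.037 and 0 called lower, and no minimum gave 10 called lower. None of the list was called higher in immature neutrophils, granulocyte progenitors or basophils or mast cells, where 1.26%, 0.566% and 1.42% of all genes were.

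In the remaining classes the list median lay close to that of all genes. Stem or multipotent progenitors had a median of -0.15, beside -0.11 for all genes, with 1 of 29 genes called lower against 1.21% and 0 called higher against 0.786%. Mature B cells had -0.32 beside -0.27, with 0 of 16 called lower against 7.87% and 1 called higher against 2.26%. T or NK cells had 0.10 beside -0.06, with 0 of 29 called lower against 3.32% and 1 called higher against 2.38%. An interval below a ratio of 1 was found for 5 of 29, 6 of 16 and 2 of 29 genes in these 3 classes, against 22.2%, 23% and 12.6% of all genes. The classes were small, with 176 and 166, 544 and 142, and 379 and 146 control and MYC cells. Among T or NK cells, T markers summed to 1367 CPM in control and 1908 CPM in MYC cells and NK markers to 1360 and 1525 CPM. Monocyte markers summed to 879 and 524 CPM there and mature neutrophil markers to 891 and 1578 CPM. The part of these shifts in the result was not tested. In cells of at least 1000 UMIs and 500 genes, the median of stem or multipotent progenitors was -0.65, with 5 genes called lower. The median of mature B cells ranged from -0.66 to -0.06 over the alternatives, and with doublets kept 6 of 23 genes were called lower there. Differences between classes were not tested.

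**Figure D2:**
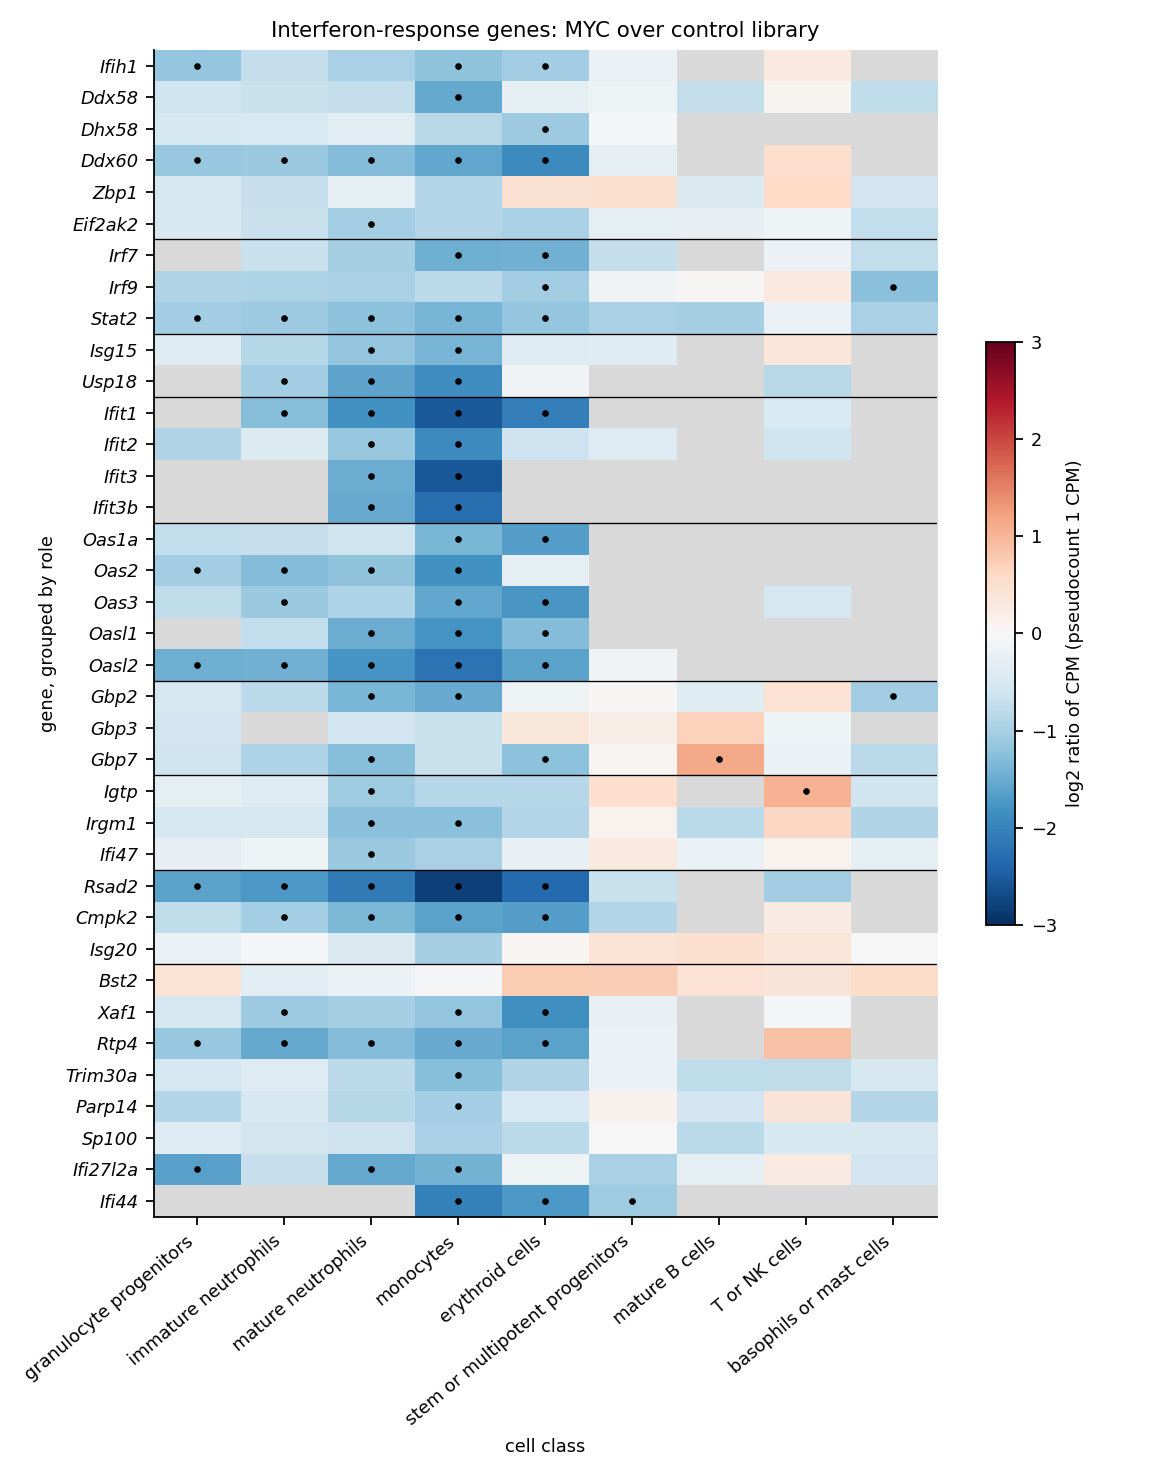
Log2 ratio of MYC over control (colour) for the 37 genes (rows, grouped by role) in the 9 classes (columns). Dots mark called genes and grey cells had under 50 UMIs. Blue, for lower in MYC, fills the columns of mature neutrophils, monocytes and erythroid cells and thins out in stem or multipotent progenitors and T or NK cells. The Bst2 row is close to level in mature neutrophils and monocytes, higher in erythroid cells and lower in immature neutrophils.

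Summed over the 37 genes, the level in monocytes was 2626 CPM in the control and 1134 CPM with MYC, and it went from 3175 to 1395 CPM in mature neutrophils. It went from 1721 to 1016 CPM in erythroid cells, from 785 to 461 CPM in immature neutrophils and from 619 to 430 CPM in granulocyte progenitors. The sums were 897 and 894 CPM in stem or multipotent progenitors and 1666 and 1732 CPM in T or NK cells. They were 1278 and 967 CPM in mature B cells (log2 -0.40, interval -0.53 to -0.28), a difference of which Sp100 made up 44.7%, and 963 and 616 CPM in basophils or mast cells (-0.65). In the MYC library the mature neutrophil and monocyte sums were thus below the T or NK cell sum, which they exceeded in the control.

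Sensors of foreign nucleic acid differed in size from gene to gene. Ddx60, a helicase that assists the RNA sensors, went from 218 to 88 CPM in mature neutrophils, a log2 ratio of -1.30. It went from 12.2 to 3.49 CPM in monocytes (-1.55) and from 9.89 to 1.91 CPM in erythroid cells (-1.91). It was called lower in granulocyte progenitors and immature neutrophils too. Ifih1, which encodes the RNA sensor MDA5, fell from 37.3 to 15.7 CPM in monocytes (-1.20), from 37 to 17.3 CPM in erythroid cells (-1.05) and from 23.2 to 9.74 CPM in granulocyte progenitors (-1.17). Ddx58, which encodes the RNA sensor RIG-I, fell in monocytes, from 23.3 to 7.34 CPM (-1.54). In mature neutrophils Ddx58 stood at 81.5 and 49 CPM, short of 2-fold.

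Eif2ak2, the kinase PKR that halts translation on double-stranded RNA, fell from 56.8 to 27.5 CPM in mature neutrophils (-1.02), and in monocytes its levels were 70 and 37.3 CPM (-0.89). Dhx58, which encodes the regulator LGP2, was called lower in erythroid cells alone of the 5 main classes, from 7.55 to 3 CPM. Zbp1, a sensor of left-handed nucleic acid that can trigger cell death, was called lower in none of the 9 classes. Its levels were 68.3 and 36.9 CPM in monocytes (-0.87), 39.2 and 32.4 CPM in mature neutrophils (-0.27), and 47.1 and 72 CPM in T or NK cells (0.60, interval 0.13 to 1.08).

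The 3 signal transducers and transcription factors of the list had ratios below 0 in every main class where they were read. Stat2, which carries the activating domain of ISGF3, was called lower in all 5 main classes, namely granulocyte progenitors, immature and mature neutrophils, monocytes and erythroid cells. It went from 50.7 to 18.6 CPM in monocytes (-1.40, interval -1.61 to -1.28), from 31.5 to 12.8 CPM in mature neutrophils (-1.23, interval -1.54 to -1.06) and from 19.6 to 8.17 CPM in erythroid cells (-1.17). Its log2 ratio was just short of the call in stem or multipotent progenitors, at 21.4 and 10.4 CPM (-0.98, interval -1.69 to -0.44), where the list median was near that of all genes. Irf9, the DNA-binding part of ISGF3, fell from 60.3 to 28.7 CPM in erythroid cells (-1.04) and from 48.2 to 19.6 CPM in basophils or mast cells (-1.26). In mature neutrophils it was at 90.7 and 45.8 CPM (-0.97), just short of the call. Irf7, which amplifies interferon production, fell from 61.8 to 21.7 CPM in monocytes (-1.47) and from 36.8 to 12.9 CPM in erythroid cells (-1.44). It stood at 63.9 and 31.6 CPM in mature neutrophils (-0.99).

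Isg15 encodes a ubiquitin-like protein that is attached to other proteins, and Usp18 the protease that removes it and also restrains the interferon receptor. Isg15 fell from 117 to 50.7 CPM in mature neutrophils (-1.19, interval -1.32 to -1.08) and from 50.8 to 18.7 CPM in monocytes (-1.40, interval -1.61 to -1.28). In erythroid cells, where its control level was the highest of the 9 classes, it was at 205 and 155 CPM (-0.40, interval -0.49 to -0.30). Usp18 fell from 19.6 to 5.86 CPM in mature neutrophils (-1.59) and from 19.7 to 4.67 CPM in monocytes (-1.87).

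The IFIT genes, whose proteins bind foreign RNA ends and block their translation, had the lowest ratios as a group in monocytes. All 4 were called lower in monocytes, with a median of -2.38, and all 4 in mature neutrophils, with ratios from -1.81 to -1.15. Ifit1 went from 25 to 3.53 CPM in monocytes (-2.52, interval -3.16 to -2.49), from 79.5 to 21.9 CPM in mature neutrophils (-1.81, interval -2.03 to -1.69) and from 17.1 to 3.27 CPM in erythroid cells (-2.09). Ifit3 went from 18.3 to 2.32 CPM in monocytes (-2.54) and from 32.3 to 10.9 CPM in mature neutrophils (-1.49). Ifit3b, whose promoter sites are identical to those of Ifit3, went from 4.89 to 0.236 CPM in monocytes (-2.25) and from 24.5 to 7.91 CPM in mature neutrophils (-1.52). Reads that match both copies could be counted in either or in neither, so the split between Ifit3 and Ifit3b is uncertain. The cluster of Ifit2, Ifit3, Ifit3b and Ifit1 lies on chromosome 19 between 34550694 and 34650009 (GRCm38).

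Enzymes of the OAS family make the signal that activates RNase L, and Oasl1 represses the translation of Irf7. All 5 members were called lower in monocytes (median -1.80), 4 of 5 in erythroid cells (-1.61) and 3 of 5 in mature neutrophils (-1.20). Oasl2 was lower in all 5 main classes. It went from 202 to 58.1 CPM in mature neutrophils (-1.78, interval -1.90 to -1.69), from 54.2 to 11 CPM in monocytes (-2.21) and from 19.5 to 5.72 CPM in erythroid cells (-1.61). Oas3 went from 35.1 to 11.3 CPM in monocytes (-1.55) and from 44 to 12.4 CPM in erythroid cells (-1.75). It was at 188 and 98.9 CPM in mature neutrophils (-0.92). Oas2 was called lower in granulocyte progenitors, both neutrophil classes and monocytes, where it went from 13 to 2.98 CPM (-1.81).

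Rsad2 was the member with the lowest ratio in mature neutrophils, monocytes, erythroid cells and immature neutrophils. It encodes viperin, a radical-SAM enzyme that makes a chain-terminating nucleotide, and lies on chromosome 12 from 26442746 to 26456452 on the minus strand (ENSMUSG00000020641). Its level went from 366 to 72 CPM in erythroid cells (-2.33, interval -2.47 to -2.22). It went from 196 to 44.5 CPM in mature neutrophils (-2.12, interval -2.26 to -2.02), from 29 to 3.3 CPM in monocytes (-2.80), from 16.5 to 4.33 CPM in immature neutrophils (-1.71) and from 7.08 to 1.68 CPM in granulocyte progenitors (-1.59). Cmpk2, its neighbour on the plus strand from 26469204 to 26479837, encodes a mitochondrial nucleotide kinase thought to supply viperin with substrate. Cmpk2 went from 76.1 to 23.6 CPM in erythroid cells (-1.65), from 118 to 45.8 CPM in mature neutrophils (-1.35) and from 45.7 to 14.4 CPM in monocytes (-1.60).

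Among the other effectors, Ifi27l2a added most to the level and Rtp4 was called lower in the most classes. Ifi27l2a, a small hydrophobic protein gene on chromosome 12 from 103442167 to 103443680, went from 961 to 362 CPM in monocytes (-1.41, interval -1.45 to -1.37) and from 580 to 199 CPM in mature neutrophils (-1.54, interval -1.60 to -1.48). In erythroid cells it was at 16.7 and 15 CPM (-0.14) and in T or NK cells at 190 and 225 CPM (0.24), and both signs depended on the scaling. Rtp4, a chaperone-like receptor transporter that also binds viral RNA, went from 107 to 42.6 CPM in mature neutrophils (-1.31), from 21.5 to 6.87 CPM in monocytes (-1.51) and from 10.3 to 2.72 CPM in erythroid cells (-1.60). Among T or NK cells Rtp4 was at 14.5 and 27.8 CPM (0.89, interval 0.10 to 1.73). Trim30a, a brake on Toll-like receptor signalling, fell from 140 to 56.7 CPM in monocytes (-1.28), and Parp14, an ADP-ribosyltransferase, from 76.7 to 37.1 CPM (-1.03). Xaf1, a gene that promotes cell death, fell from 40.7 to 17.3 CPM in monocytes (-1.19) and from 19.6 to 4.77 CPM in erythroid cells (-1.84). Ifi44 fell from 4.48 to 0.353 CPM in monocytes and from 3.68 to 0.408 CPM in erythroid cells. It was also the 1 gene called lower in stem or multipotent progenitors, at 19.2 and 8.69 CPM.

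Of the 29 genes read in all 5 main classes, 5 were called lower in each: Ddx60, Stat2, Oasl2, Rsad2 and Rtp4. Over all genes this held for 11 of 8064 (0.136%). At the other end, 32 of the 37 genes were called lower in at least 1 of the 5, against 8.3% of the 11994 genes read in at least 1, and Zbp1, Gbp3, Isg20, Bst2 and Sp100 in none.

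**Figure D3:**
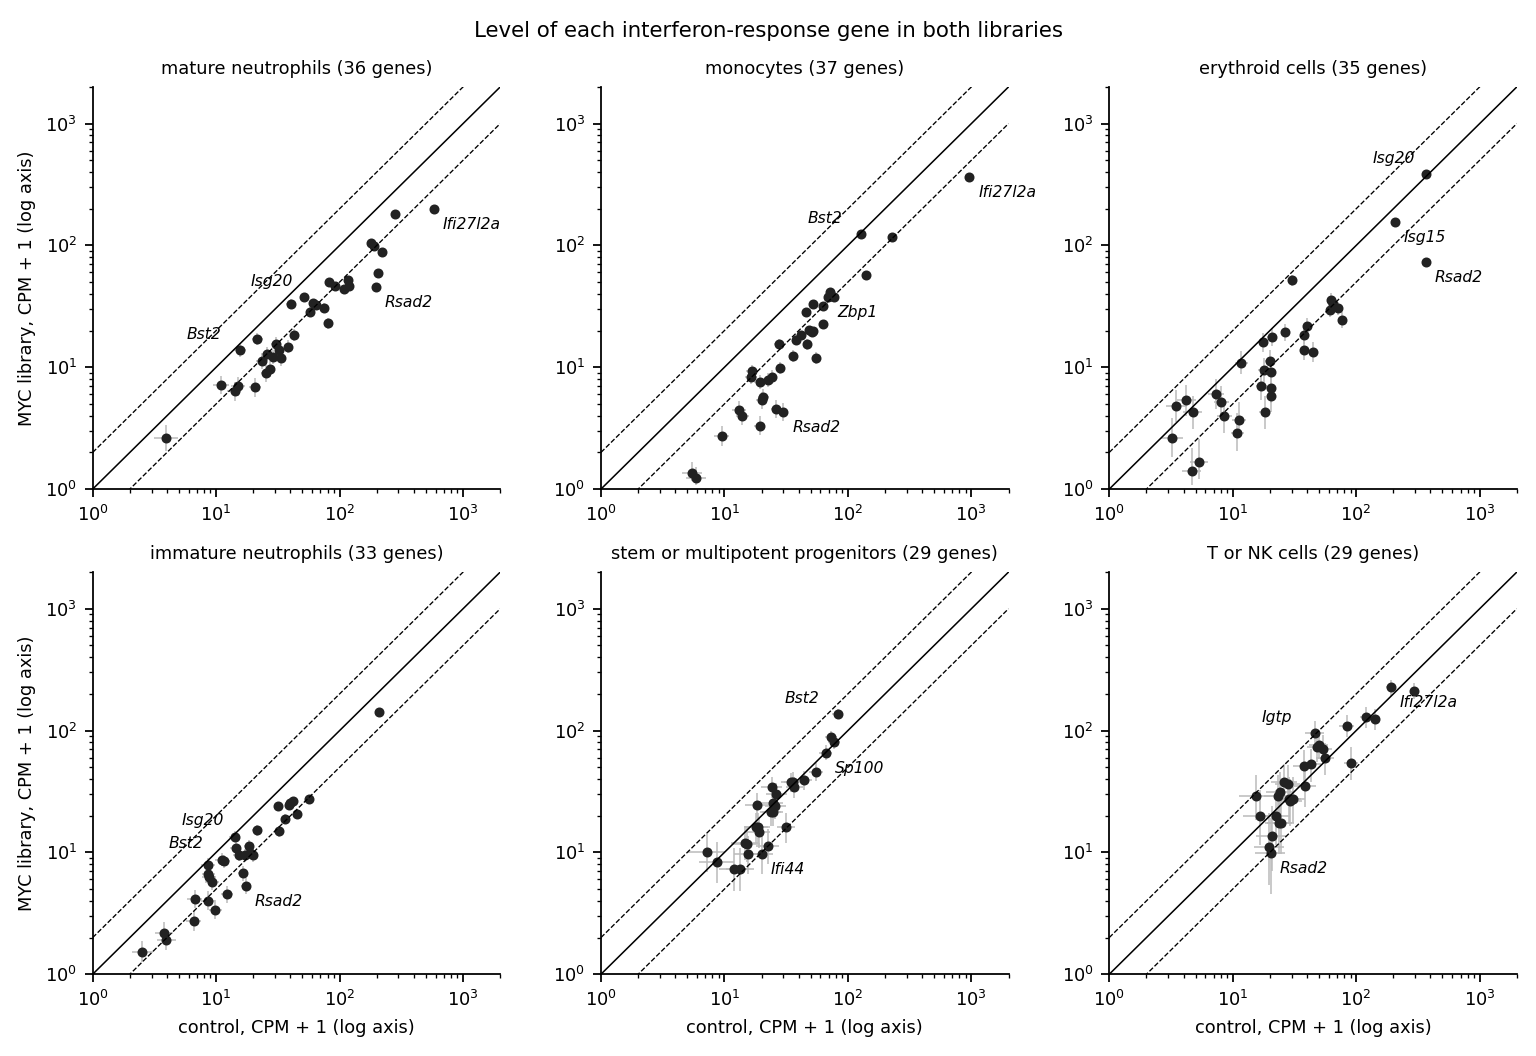
Level in the control library (horizontal axis) against level in the MYC library (vertical axis), both as CPM plus 1 on log axes, for each gene in 6 classes. The solid line marks equal levels, the dashed lines a 2-fold lower and a 2-fold higher level in MYC, and the grey bars 95% Poisson intervals. Monocyte and mature neutrophil points lie mostly below the lower dashed line, while those of stem or multipotent progenitors and T or NK cells follow the solid line.

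A few abundant genes made up much of the difference in summed level, and they differed by class. In monocytes Ifi27l2a made up 40.2% of the difference, followed by Sp100 with 7.56% and Trim30a with 5.56%. In mature neutrophils Ifi27l2a made up 21.4%, Rsad2 8.52%, Oasl2 8.09% and Ddx60 7.28%. In erythroid cells Rsad2 alone made up 41.6%, and Cmpk2 added 7.45% and Isg15 7.01%. Sp100, a nuclear body protein gene, led in immature neutrophils with 20.7% and in granulocyte progenitors with 14.6%. It did so through its level and not through a large ratio: it stood at 207 and 140 CPM in immature neutrophils (-0.56) and was not called lower in any class. Its ratio was farthest from 0 in monocytes, at 228 and 115 CPM (-0.98).

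**Figure D4:**
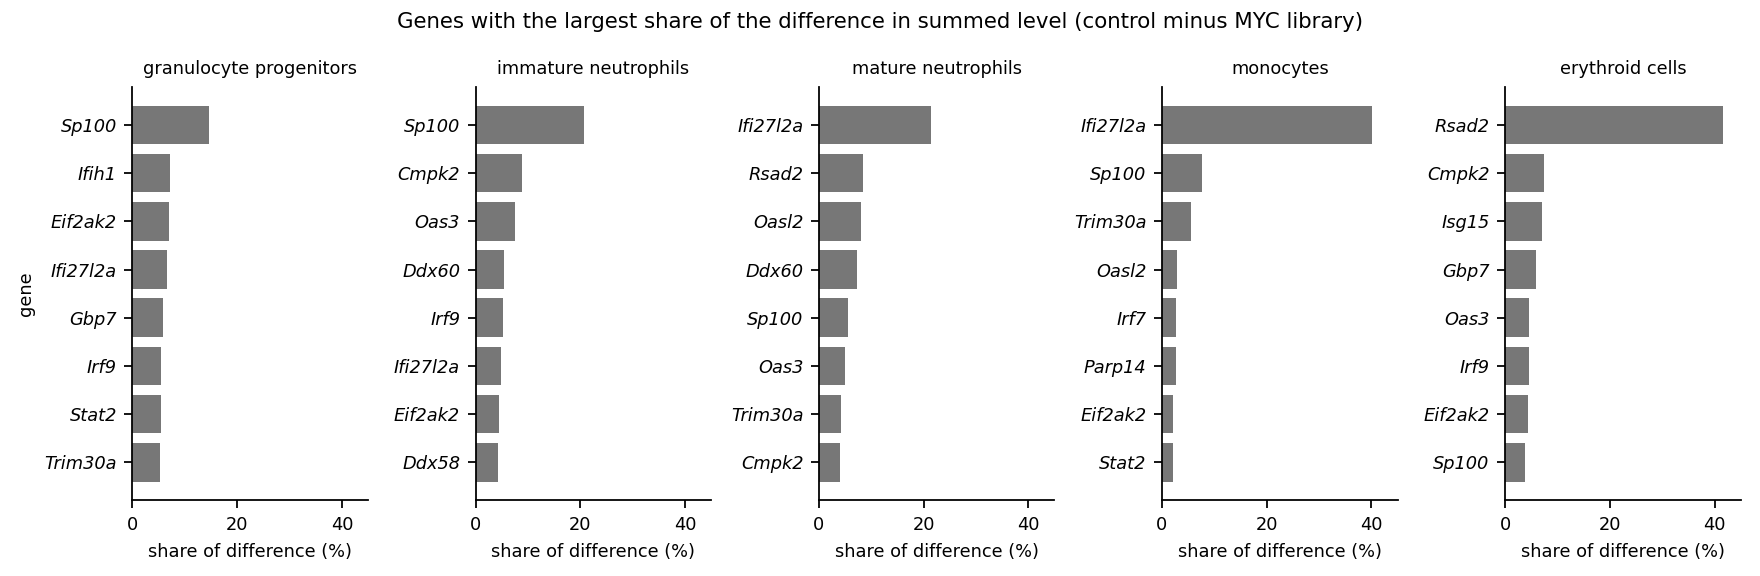
Share in percent of the difference in summed level between the libraries (horizontal axis) made up by each of the 8 genes with the largest shares, 1 panel for each of 5 classes. Ifi27l2a leads in mature neutrophils (21.4%) and monocytes (40.2%), Rsad2 in erythroid cells (41.6%) and Sp100 in immature neutrophils and granulocyte progenitors.

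Bst2 was the clearest exception. It encodes tetherin, a membrane protein that holds budding virus on the cell, and lies on chromosome 8 from 71534255 to 71537456 (ENSMUSG00000046718). Its levels were 127 and 123 CPM in monocytes (-0.05, interval -0.13 to 0.02) and 14.5 and 12.9 CPM in mature neutrophils (-0.16, interval -0.45 to 0.10), and the sign in both classes changed with the scaling. Its interval was above a ratio of 1 in granulocyte progenitors at 53.4 and 71.1 CPM (0.41), in erythroid cells at 29.4 and 50.8 CPM (0.77), in stem or multipotent progenitors at 81.7 and 136 CPM (0.73) and in basophils or mast cells at 61.2 and 89.5 CPM (0.54). In immature neutrophils Bst2 was lower instead (-0.34, interval wholly below a ratio of 1), though less so than the list median. None of these values reached the 2-fold call.

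Isg20, an exonuclease that degrades RNA, was nearly level in erythroid cells, where it was most abundant, at 370 and 387 CPM (0.07, interval 0.00 to 0.13, with a sign that changed with the scaling). It was at 13.1 and 12.5 CPM in immature neutrophils (-0.06) and 17.4 and 15 CPM in granulocyte progenitors (-0.20), where the sign changed too, and at 50.2 and 36.8 CPM in mature neutrophils (-0.44). In monocytes, where it was scarce, it was at 15.4 and 7.26 CPM (-0.99, interval -1.36 to -0.80). In erythroid cells Isg20 and Rsad2 thus had near-equal control levels, 370 and 366 CPM, and MYC levels of 387 and 72 CPM.

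Of the GTPases that interferon gamma also induces, Gbp7 and Igtp were called lower in at least 1 class and higher in another. An interval above a ratio of 1 in some class was not particular to GTPases, since Zbp1, Rtp4 and Parp14 had one in T or NK cells and Bst2 in several classes. Those in T or NK cells come from totals that include Gm42418, without which the list median there was -0.09. Bounds close to a ratio of 1 can depend on that choice. Gbp7 (chromosome 3, 142530342 to 142550149) fell from 73.9 to 29.7 CPM in mature neutrophils (-1.29, interval -1.47 to -1.16) and from 70.9 to 29.4 CPM in erythroid cells (-1.24, interval -1.48 to -1.06). In mature B cells it rose from 32.3 to 72.3 CPM (1.14, interval 0.63 to 1.68). That call ended in cells under 5% mitochondrial UMIs, where the ratio was 0.09, and with means over cells, without Gm42418 or with a minimum of 200 UMIs. In stem or multipotent progenitors Gbp7 was at 76.5 and 79.5 CPM. Gbp2 fell from 37.4 to 13.8 CPM in mature neutrophils (-1.38) and from 27.5 to 8.91 CPM in monocytes (-1.52), whereas Gbp3 was at 51.3 and 31.9 CPM in monocytes (-0.67) and at 25.2 and 41.3 CPM in mature B cells (0.69, interval 0.03 to 1.36). Gbp3 and Gbp7 have close copies whose reads the counting could split.

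Igtp, Irgm1 and Ifi47, immunity-related GTPases that act on the vacuoles of intracellular microbes, were all called lower in mature neutrophils. Igtp (chromosome 11, 58199556 to 58207591) fell there from 22.4 to 10.2 CPM (-1.06) and rose among T or NK cells from 45.2 to 94.8 CPM (1.05, with a lower bound of 0.63). The call in T or NK cells ended under 7 alternatives, with ratios down to 0.71. Irgm1 fell from 28.1 to 11.2 CPM in mature neutrophils (-1.26) and from 47.1 to 19.1 CPM in monocytes (-1.26), and in T or NK cells it was at 48.7 and 75.8 CPM (0.63, interval 0.17 to 1.09). Ifi47 fell from 14 to 5.98 CPM in mature neutrophils (-1.11) and was at 7.64 and 6.92 CPM in immature neutrophils (-0.12, interval -0.45 to 0.16, with a sign that changed with the scaling).

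The difference was also seen cell by cell. Each cell was thinned to 2000 UMIs, and cells below that depth were left out, 365 control and 286 MYC cells among mature neutrophils and 162 and 162 among erythroid cells. A thinned mature neutrophil held a mean of 6.82 UMIs of the listed genes in control and 2.92 in MYC cells, with medians of 4 and 2. Without thinning the means were 13.6 and 7.89. The share with at least 10 such UMIs was 20.2% among control and 3.76% among MYC cells, and the share with none was 4.98% and 15.5%. A thinned monocyte held a mean of 6.49 and 2.68 UMIs, with 21.6% and 3.37% of cells at 10 or more. The tenth of cells with the most such UMIs held 37.2% of them in control and 38.2% in MYC mature neutrophils, and 33.6% and 34.0% in monocytes. In T or NK cells the thinned means were 3.73 and 3.72.

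**Figure D5:**
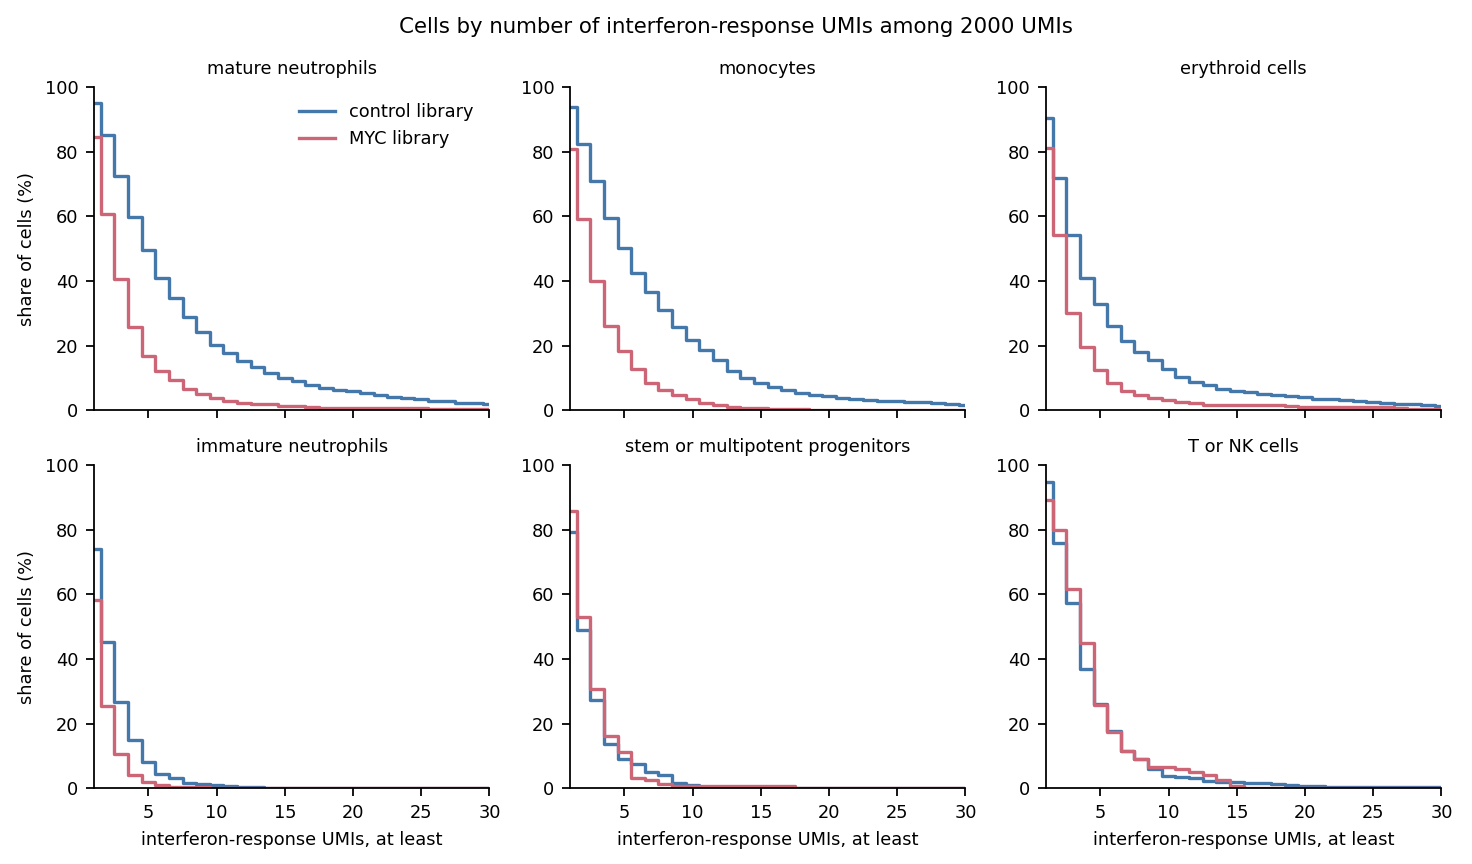
Share of cells in percent (vertical axis) with at least the given number of UMIs of the listed genes among 2000 sampled UMIs (horizontal axis), for the control and MYC libraries in 6 classes. The MYC curve lies below the control curve over its whole length in mature neutrophils and monocytes, and the curves cross in T or NK cells.

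Within the classes, the list median was below that of all genes in each cluster of mature neutrophils, monocytes and erythroid cells, although the libraries did not fill the clusters equally. In immature neutrophils 2 clusters had medians of -0.59 and -0.77 beside -0.20 and -0.21 for all genes. The other, of 159 control and 120 MYC cells, had -0.23 beside -0.26, over the 8 genes read there. The mature neutrophils formed 3 clusters with medians of -0.81, -0.88 and -1.15, beside -0.17, -0.08 and -0.16 for all genes. Their cell numbers were 1733 and 1347, 241 and 1490, and 1804 and 293 for control and MYC. The cluster filled mostly by control cells had the highest sum, at 4550.3 and 2093 CPM, so the mix of clusters moves with the sum over the class, and its part in the result was not tested. The 2 monocyte clusters had medians of -1.47 and -0.90, with sums of 4903 and 2058 CPM and of 1546 and 812 CPM.

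The 3 erythroid clusters, with medians of -1.05, -1.15 and -0.76, stood beside all-gene medians of 0.06, -0.08 and -0.17, and Rsad2 was lower in the MYC library in each. In the cluster led by haemoglobin genes and Bpgm, Rsad2 was at 2247 CPM among control and 428 CPM among MYC cells (-2.39). In the cluster led by Hemgn and Rhd it was at 225 and 76 CPM (-1.55), and in the cluster led by Car1 at 24.2 and 3.92 CPM (-2.36). Isg15 in the same 3 clusters was at 727 and 583 CPM, 227 and 217 CPM, and 28.4 and 13.9 CPM. Isg20 was at 672 and 868 CPM, 441 and 565 CPM, and 189 and 116 CPM. Markers of mature neutrophils, 7 genes in all, summed to 476 and 434 CPM in erythroid cells against 30536 and 35356 CPM in mature neutrophils themselves, and to 1239 and 954 CPM in monocytes. Markers of immature neutrophils summed to 2616 and 5131 CPM in erythroid cells, and their part in the erythroid values was not tested.

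The upstream pathway was examined with 66 further genes grouped as ligands, receptors, kinases and transcription factors, inducing receptors and adaptors, negative regulators and other targets. Transcripts of Ifnb1, Ifna1, Ifna2, Ifna4 and Ifne had 0 UMIs in both libraries. A count of 0 allows up to about 3 expected UMIs of each gene per library, by a 95% bound taken on 1 side only. Ifnk, another type I interferon, had 0 control and 2 MYC UMIs. Ifng had 37 control and 23 MYC UMIs, and among T or NK cells it rose from 11.4 to 26.5 CPM (1.15). No receptor gene was called lower in any of the 9 classes. With 4 to 6 read per class and 1.21% to 7.87% of all genes called lower, this count does not stand apart from the background. In erythroid cells 2 of the 5 read were called higher, against 3.34% of all genes. These were the subunits of the interferon gamma receptor, Ifngr1 at 37 and 91.5 CPM (1.28) and Ifngr2 at 5.06 and 11.3 CPM (1.02). Ifnar1 was at 52 and 30.9 CPM in mature neutrophils (-0.73) and 55.3 and 42.8 CPM in monocytes (-0.36), and Ifnar2 at 95.5 and 102 CPM and at 176 and 152 CPM.

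Irf1, a transcription factor that interferon induces, rose among T or NK cells from 75.4 to 168 CPM (1.14). Of the other interferon targets, 10 of 24 read were called lower in monocytes, 7 of 18 in erythroid cells and 5 of 22 in mature neutrophils, against 2.44%, 2.72% and 4.93% of all genes. Among them the chemokine gene Cxcl10 fell from 27.2 to 4.79 CPM in monocytes (-2.29) and the antiviral factor Samd9l from 83.6 to 24.9 CPM (-1.71). Of 22 such targets read in T or NK cells, 0 were called lower and 1, Ifi35, was called higher, at 21.6 and 54.3 CPM (1.29), against 3.32% and 2.38% of all genes, so neither count stands apart from the background.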

How the data were processed

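UMI counts per gene and barcode were used as deposited, whole numbers that were not normalized; per the file headers the program was Cell Ranger 6.0.0. The submitters' processing notes also name Seurat and the builds GRCm38 and mm10, and the barcode calling and annotation are not given in the sources used here. Gene positions came from GENCODE vM21. Cells were kept with at least 500 UMIs, 200 genes and under 10% mitochondrial UMIs. Scrublet in scanpy 1.11.5, with an expected rate of 0.8% per 1000 barcodes and a score limit of 0.35, removed 5.69% of control and 3.19% of MYC cells, below the expected 13.7% and 11.6%. Both libraries were clustered together (Leiden, resolution 1) without the interferon genes, and named by the markers of 18 cell types. Clusters with median UMIs under 0.2 of their library's stayed unnamed, a limit chosen after seeing the data. UMIs were summed per class and library. Intervals are exact Poisson intervals of levels and exact conditional binomial intervals of ratios (scipy 1.17.1), and those of list medians are order-statistic intervals over genes. The members, the gene lists and the markers were chosen with earlier results of these data known. All 37 measured genes could be named, grouped by role. The ratio and interval code was tested on simulated data. Nothing was corrected for free RNA.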

Additional observations from a re-analysis of the deposited data

Results flagged for a closer look

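Gbp7 was called lower in 2 classes and higher in 1, and Igtp lower in 1 and higher in 1. The log2 ratio of Gbp7 was -1.29 in mature neutrophils and -1.24 in erythroid cells, but 1.14 in mature B cells. Over 14 alternatives it stayed above 0 in mature B cells, from 0.09 with cells under 5% mitochondrial UMIs to 1.45 at Leiden resolution 0.5. The higher call in mature B cells ended in cells under 5% mitochondrial UMIs, with means over cells, without Gm42418 and with a minimum of 200 UMIs. That of Igtp was -1.06 in mature neutrophils and 1.05 in T or NK cells, where it ranged from 0.71 to 1.11 and the higher call ended under 7 alternatives. With 1 library per group the difference between the classes was not tested.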

How the results depend on the processing

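Over the alternatives the list medians stayed below 0 in granulocyte progenitors (-0.75 to -0.36), immature neutrophils (-0.82 to -0.49), mature neutrophils (-1.23 to -0.92), monocytes (-1.54 to -1.03), erythroid cells (-1.11 to -0.72) and mature B cells (-0.66 to -0.06). They ranged from -0.65 to 0.06 in stem or multipotent progenitors, -0.09 to 0.25 in T or NK cells and, going from lowest to highest, -0.89 to 0.037 in basophils or mast cells. Median-of-ratios scaling gave medians of -0.36 in granulocyte progenitors, -0.55 in immature neutrophils and -0.96 in mature neutrophils, and 3, 5, 0 and 1 genes called lower in granulocyte progenitors, immature neutrophils, stem or multipotent progenitors and basophils or mast cells. Adding 5 CPM gave medians of -0.46 in granulocyte progenitors, -0.56 in immature neutrophils, -0.92 in mature neutrophils and -1.03 in monocytes. It left 1 gene called lower in granulocyte progenitors, 1 in immature neutrophils, 9 in erythroid cells, 0 in stem or multipotent progenitors and 1 in basophils or mast cells, and 0 called higher in T or NK cells. A minimum of 200 UMIs left fewer genes to read: 3 of 19 were lower in granulocyte progenitors, 0 of 9 in stem or multipotent progenitors and 0 of 2 in basophils or mast cells, whose median turned to 0.037, and 0 were higher in mature B or T or NK cells. With no minimum, 3 were lower in mature B cells and 10 in basophils or mast cells. A 1.5-fold call gave 16 lower in granulocyte progenitors, 23 in immature neutrophils, 5 in stem or multipotent progenitors, 4 in mature B cells, 1 in T or NK cells and 8 in basophils or mast cells. It gave 1 higher in erythroid cells, 1 in stem or multipotent progenitors, 2 in mature B cells and 4 in T or NK cells. Shares of all genes were not computed for this call or for the other alternatives, so the counts in this section stand without a background. With doublets kept, 7, 4, 6, 1 and 4 were lower in immature neutrophils, stem or multipotent progenitors, mature B cells, T or NK cells and basophils or mast cells, and the thinned log2 ratio of means in immature neutrophils was -0.74. With cells under 5% mitochondrial UMIs, 7 were lower in immature neutrophils, 2 in mature B cells and 4 in basophils or mast cells, and 1 was higher in erythroid cells, 0 in mature B cells and 0 in T or NK cells. Cells of at least 1000 UMIs and 500 genes gave medians of -0.49 in immature neutrophils (3 lower) and -0.65 in stem or multipotent progenitors (5 lower), and 1 lower in mature B cells. Leiden resolution 0.5 gave 1 lower and 2 higher in mature B cells, and resolution 2 gave a median of -0.30 with 4 lower in stem or multipotent progenitors. Classes from markers alone gave -0.62 with 4 lower in immature neutrophils, -0.37 with 2 lower in stem or multipotent progenitors, 2 lower in mature B cells and 0 higher in T or NK cells. Means over cells gave 1 higher in erythroid cells, 2 lower in stem or multipotent progenitors, 1 lower and 0 higher in mature B cells, 2 lower in T or NK cells and 4 lower in basophils or mast cells. Leaving the 20 most abundant genes out of the total, or Gm42418 alone, gave the same counts: 3 lower in stem or multipotent progenitors, 1 lower in mature B cells, and 1 lower and 0 higher in T or NK cells. With 0 higher in mature B cells the Gm42418 setting also ended that call. The automatic doublet threshold gave -0.54 with 3 lower in immature neutrophils and 1 lower in T or NK cells. The Gm42418 setting and the automatic threshold were chosen after seeing the data. The cause of these changes was not tested, except that a higher minimum leaves fewer genes. No value for stem or multipotent progenitors was obtained with cells under 5% mitochondrial UMIs, at Leiden resolution 0.5 or at the automatic threshold, since too few cells bore that name. No paired analysis was possible because each group is 1 library. Leaving out the 6 genes with close copies kept every median within its spread over genes. The fewest genes could be read in mature B cells, with 16, and in basophils or mast cells, with 17. In T or NK cells and in stem or multipotent progenitors 29 could be read.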

Other observations

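Plasmacytoid dendritic cells, the main producers of type I interferon, were too few for the comparison, with 234 control and 61 MYC cells. Irf7 in them was at 184 and 57.4 CPM (-1.67, interval -2.22 to -1.19), Stat2 at 137 and 49.4 CPM (-1.46) and Trim30a at 275 and 112 CPM (-1.29). Ifi27l2a was at 497 and 400 CPM (-0.31) and Bst2, a marker of these cells in mice, at 1778 and 2248 CPM (0.34, interval 0.25 to 0.43). Rsad2 rested on 60 and 3 UMIs there and Ifi44 on 134 and 5. The markers of these cells summed to 7062 and 4201 CPM in them and those of immature neutrophils to 4936 and 10426 CPM, and the part of these shifts in the values was not tested.

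Plasma cells, 246 control and 89 MYC cells, differed in both directions. Zbp1 was at 38.8 and 109 CPM (1.47, interval 1.19 to 1.79), Gbp7 at 14.2 and 39.1 CPM (1.40) and Bst2 at 79.4 and 187 CPM (1.23, interval 1.02 to 1.46). Trim30a was at 22.5 and 6.14 CPM (-1.72) and Ddx58 at 39 and 18.4 CPM (-1.04). Plasma cell markers summed to 24367 and 12598 CPM in them, monocyte markers to 366 and 3102 CPM and immature neutrophil markers to 2903 and 5696 CPM, and the part of these shifts was not tested. Macrophages numbered 19 control and 624 MYC cells, too few for a ratio, and Isg15 was at 100.5 CPM in those of the MYC library.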
